A study of Rattus norvegicus with 2 samples.

Results

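Serotonin in the hindbrain is made by raphe neurons and read locally by several receptor families. Tryptophan hydroxylase 2, encoded by Tph2, carries out the rate-limiting step of its synthesis in the brain. The plasma membrane transporter encoded by Slc6a4 takes released serotonin back up, and the transcription factor encoded by Fev, also called Pet1, gives these neurons their identity. In the nucleus of the solitary tract (NTS), the first relay for baroreceptor and visceral afferents, serotonin receptors lie on afferent terminals and on local neurons and modulate cardiovascular reflexes.

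The genes described here are 3 raphe neuron genes (Tph2, Slc6a4 and Fev) and 7 receptor genes (Htr1a, Htr1b, Htr2a, Htr2c, Htr3a, Htr3b and Htr7). They were picked by name, not by their values, though with earlier results of these data known. Their probes were found through the transcript accession of each probe outside the control spots. These genes make up 10 of the 16581 genes that could be named on the array. They had 12 probes, 1 for each gene except Htr1b and Htr2c, which had 2 each, and every one of these probes was spotted once per array.

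The tissue was the NTS of spontaneously hypertensive rats (SHR), an inbred strain with raised blood pressure, taken at 9 weeks of age. The male group was 1 pool of RNA from 5 male SHR, and the female group was 1 pool of RNA from 5 female SHR, with 100 ng from each rat. Both groups carry the hypertensive background, and the labels name no treatment. The question was whether gene expression in this brain centre of cardiovascular control differs between the sexes. Each pool was labelled with Cy3 and hybridised to 1 array, so every difference compares 2 arrays, the variation between rats is unknown and no test was possible.

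Signals were scaled so that each array's 75th percentile equals 100, and the result is called scaled signal. The ± after a signal is the error that the scanner program itself wrote for that spot, which covers the spot and not the rats, the pools or the labelling. For bright spots it was close to a fixed share of the signal, as for Tph2 at 40.7 ± 4.07 in the male pool. The error of a difference between single bright spots was therefore near 0.20 for any gene, and a multiple of it restates the fold. Differences are on the log2 scale, female minus male. Probes bind with different efficiency, so a brighter signal does not mean more mRNA; brightness is used to pick which genes are named and to read the precision of a difference. In pooled tissue RNA, fewer cells of a type and less RNA per cell cannot be told apart.

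Of the 10 genes, 8 were well above background on both arrays, and Fev and Htr3b were not on either. The 8 measured genes split evenly, 4 higher in females and 4 in males, with differences from -0.32 to 0.42 and a median of -0.04. None reached 1.5-fold as a mean over its probes, beside 2.29% of the 13428 named genes measured on both arrays, so 0 of 8 is near that share. The median over all those named genes was 0.02. Single probes went further: 2 of the 10 measured probes passed 1.5-fold, one of Htr2c towards the female and one of Htr1b towards the male array, beside 2.35% of all named measured probes. Both of those genes had a second, dim probe on the opposite side of zero in the main setting, a sign that did not hold in every other setting.

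**Figure D1:**
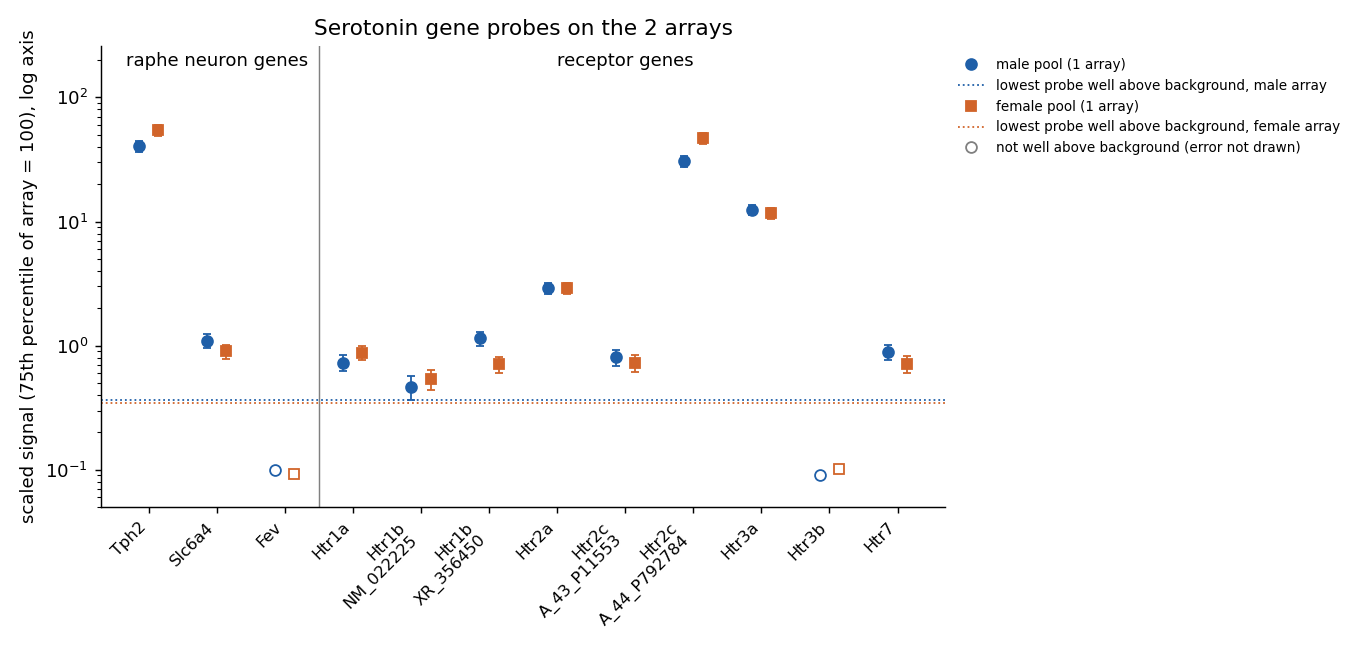
Scaled signal (log axis, 75th percentile of each array at 100) of the 12 probes of the serotonin genes on the male array (circles) and the female array (squares). Bars are the scanner program's error of the spot, open symbols mark probes not well above background, and dotted lines mark the lowest probe well above background on each array; the probes of Fev and Htr3b lie under these lines on both arrays, while Tph2, the brighter Htr2c probe and Htr3a lie far over them.

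Tph2 showed the largest difference of the 8 genes. Its scaled signal was 40.7 ± 4.07 in the male pool and 54.6 ± 5.46 in the female pool, a 1.34-fold difference, or 0.42 ± 0.20 on the log2 scale. Before any correction the spot read 822 against a local background of 37 in the male pool and 1103 against 36 in the female pool, so background made up little of either value. The difference was 2.07 times the program's error, a multiple that restates the fold for a spot this bright. It can also be read against genes of like brightness: Tph2 lay in the third of 4 bands of equal gene number, ordered from dim to bright, where 3357 genes had differences with an SD of 0.16 and the median spot SD of repeated probes was 0.05.

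Slc6a4, the reuptake transporter gene, stood the other way and was dim. It gave 1.10 ± 0.13 in the male pool and 0.90 ± 0.11 in the female pool, a 1.22-fold difference towards the male pool, or -0.29 ± 0.25. The uncorrected spot read 62 over a local background of 37 on each array, so the difference between the pools appears only after correction and scaling. Platelets also carry this transporter, and blood genes differed between the pools. Their summed scaled signal was 5405 in males against 3476 in females, and 275 against 167 without Hba-a1, the globin gene that led the sum. Past 1.5-fold on the male side were 5 of 7 measured blood genes (median -0.73), beside 2.29% of all named measured genes in either direction. Those 5 were red cell genes, whereas Pf4 and Gp9, which mark platelets, differed by 0.01 and 0.02; both were chosen after their values were seen. The part of blood in the Slc6a4 value was not tested.

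Fev was not detected. Its probe gave a scaled signal of 0.099 in the male pool and 0.092 in the female pool, 0.27 times the lowest signal that counted as well above background there. The raw spot lay below its local background on both arrays, at 37 against 40 and 37 against 38. This bounds what the Fev probe read in these pools and gives no difference between the sexes.

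The measured raphe genes thus stood on opposite sides: 1 gene was higher in each pool, and their median of 0.07 describes neither. The other genes that mark or equip serotonergic neurons divided too. Ddc, the decarboxylase that completes serotonin synthesis and also serves catecholamine neurons, was higher on the female array with all 4 of its probes. Its brightest probe gave 381 in the male pool and 407 in the female pool, a difference of 0.09 ± 0.20. The largest difference, 0.39 ± 0.23, came from a dim probe at 1.52 against 1.99. Slc18a2, the vesicular monoamine transporter gene shared by all monoamine neurons, differed by -0.06, at 108 against 104. Lmx1b, a transcription factor gene of serotonergic and dorsal horn-type neurons, differed by 0.00 over 2 probes. Gata2, a transcription factor gene upstream in serotonergic development, was dim and stood at -0.35, and Gata3 was not well above background on either array. Ddc, Slc18a2, Lmx1b and the Gata genes were chosen after their values were seen.

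**Figure D2:**
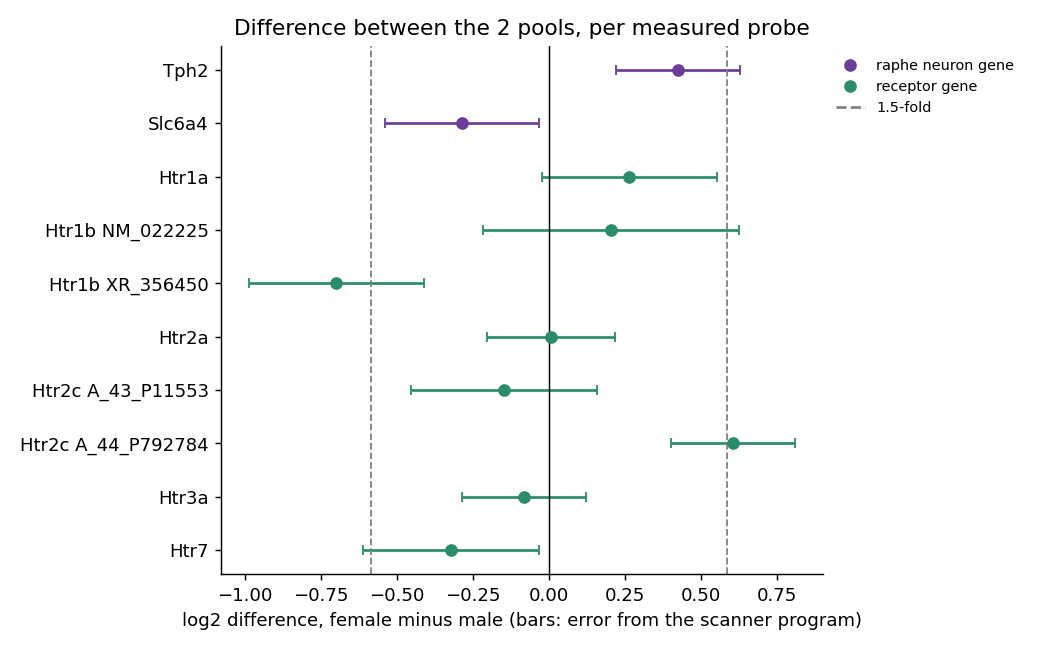
Log2 difference, female minus male, for each of the 10 measured probes of the serotonin genes (raphe neuron genes in purple, receptor genes in green), with bars for the scanner program's error and dashed lines at 1.5-fold. Tph2 sits at 0.42; the pairs of Htr1b and Htr2c probes fall on opposite sides of zero in this main setting.

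The receptor genes encode inhibitory G protein-coupled receptors (Htr1a and Htr1b), receptors coupled to phospholipase C (Htr2a and Htr2c), subunits of a cation channel (Htr3a and Htr3b) and a receptor that raises cyclic AMP (Htr7). Of the 6 measured receptor genes, 3 were higher in the female pool and 3 in the male pool, with a median of -0.04. Their median lay close to that over all genes.

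Htr1a, which encodes the autoreceptor on serotonergic cell bodies as well as a receptor of target neurons, gave 0.73 ± 0.11 in the male pool and 0.88 ± 0.12 in the female pool. The difference of 0.26 ± 0.29 was smaller than its error.

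Htr1b, the gene of the receptor on serotonergic and other terminals, was read by a pair of probes that went apart. The probe for its coding transcript (NM_022225) gave 0.47 ± 0.10 in the male pool and 0.54 ± 0.10 in the female pool, a difference of 0.20 ± 0.42. The probe for a non-coding transcript of the gene (XR_356450) gave 1.15 ± 0.15 in the male pool and 0.71 ± 0.11 in the female pool, 1.62-fold higher in the male pool, or -0.70 ± 0.29. Both probes were dim, at 1.28 to 3.15 times the lowest signal well above background. The gene mean of -0.25 lies between readings of opposite sign and describes neither transcript. The signs of the pair depended on the processing. The coding probe gave -0.05 with normexp correction and -0.01 after quantile normalization, the same side as the other probe, but 0.09 without background correction and 0.06 after loess scaling. The non-coding probe kept its side in these 4 settings, at -0.20 with normexp, -0.31 without background correction, -0.81 after quantile normalization and -0.82 after loess scaling.

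Htr2a, whose receptor excites neurons through phospholipase C, was nearly equal in the pools, at 2.90 ± 0.30 in the male pool and 2.91 ± 0.30 in the female pool. Its difference of 0.01 ± 0.21 was the smallest of the 8 genes.

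Htr2c encodes a receptor that is abundant in choroid plexus epithelium as well as present on neurons, and its mRNA is edited. Its brighter probe (A_44_P792784) gave 30.7 ± 3.08 in the male pool and 46.8 ± 4.68 in the female pool, 1.52-fold higher in the female pool, or 0.61 ± 0.20. That was 2.97 times the program's error, more than for any other measured probe of these genes, though at this brightness the multiple restates the fold. Its dimmer probe (A_43_P11553), designed to the same transcript accession, gave 0.81 ± 0.12 in the male pool and 0.73 ± 0.11 in the female pool, a difference of -0.15 ± 0.31. That probe read 54 against a local background of 42 on the male array and 56 against 41 on the female array, so most of its reading was background. The gene mean of the probes was 0.23. With normexp correction the brighter probe gave 0.51, 1.43-fold, and the dimmer one -0.01; without background correction the dimmer one gave 0.02, on the same side as the brighter one at 0.53.

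Choroid plexus markers were higher in the female pool, too. The list of these markers was chosen with earlier results of these data known. Of its 20 genes, 17 were measured. Of these, 16 were past 1.5-fold towards females and none towards males (median 1.30), beside 2.29% of all named measured genes in either direction. The summed scaled signal of the 17 was 1080.2 in the male pool and 10206 in the female pool. Without Ttr, the thyroxine carrier gene that led the sum at 617 against 9325, it was 463.0 against 880.5. The largest differences were 4.56 for the potassium channel gene Kcnj13, 4.23 for Sostdc1, 3.92 for Ttr and 2.96 for the prolactin receptor gene Prlr. The remaining measured gene, Msx1, was bright and lower in the female pool, at 189 in males against 171 in females, a difference of -0.14. Tmem72 was well above background on the female array only, and F5 and Slc13a4 had no named probe. The part of choroid plexus RNA in the Htr2c value was not tested.

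**Figure D3:**
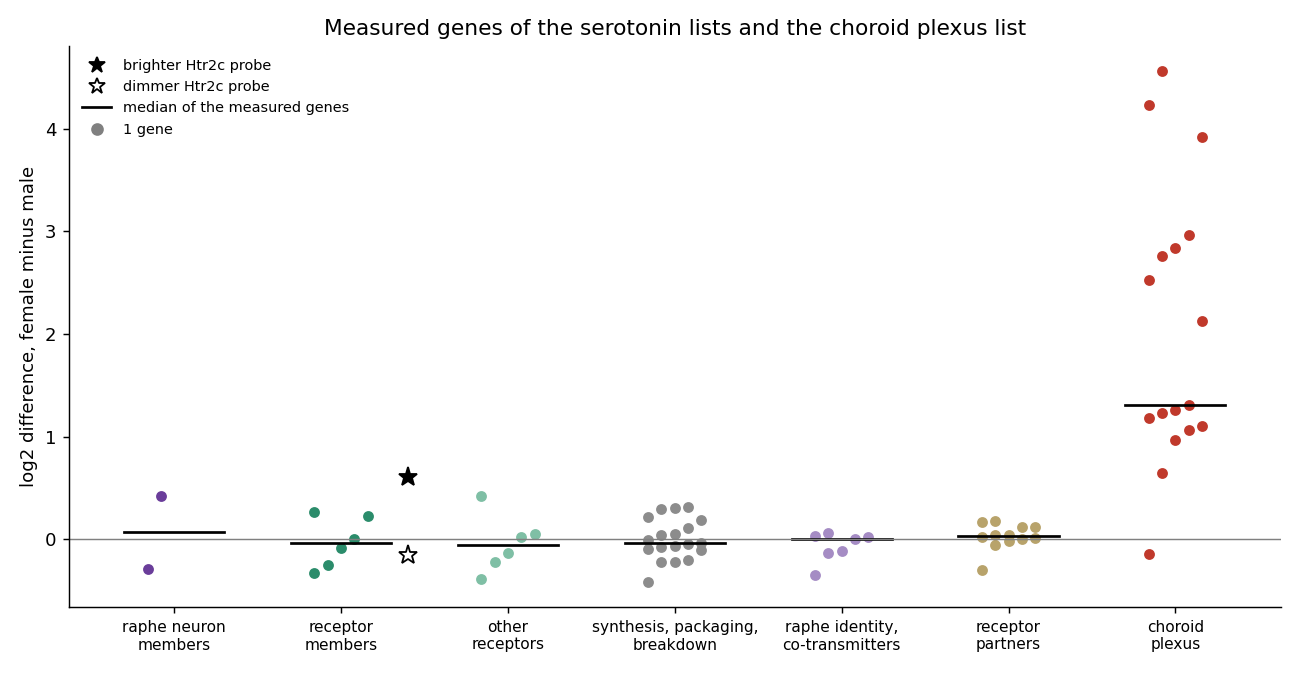
Log2 difference, female minus male, of every measured gene (points) in the serotonin gene groups and the choroid plexus list, with the median of each group as a bar and the 2 Htr2c probes as stars beside the receptor genes. The serotonin groups scatter around zero, the brighter Htr2c probe lies at 0.61, and 16 of 17 choroid plexus genes lie past 1.5-fold on the female side. The lists were chosen with earlier results of these data known.

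Htr3a, the subunit that can form the serotonin-gated channel alone, was clearly detected and nearly equal in the pools. It gave 12.5 ± 1.25 in the male pool and 11.8 ± 1.18 in the female pool, a difference of -0.08 ± 0.20. Each reading was about 34 times the lowest signal well above background (34.1 and 34.2 times).

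Htr3b, whose subunit joins the channel only together with Htr3a, was not well above background. Its probe gave 0.091 in the male pool and 0.101 in the female pool, 0.25 and 0.29 times the lowest signal well above background. The probes of the channel genes thus differed in detection, the same way in both pools. Htr3b is known from peripheral sensory neurons, whose axons but not cell bodies reach the NTS. Whether this bears on the reading of the Htr3b probe was not tested. Of 7 listed sensory ganglion genes, 6 were measured, 5 higher in females and 1 in males, with a median of 0.10. Past 1.5-fold was 1, the dim sodium channel gene Scn10a at 0.69 ± 0.38. Another dim sodium channel gene, Scn11a, chosen after its values were seen, stood the other way at -0.42 ± 0.23.

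Htr7, whose receptor raises cyclic AMP, had the lowest difference of the 8 genes. It gave 0.89 ± 0.12 in the male pool and 0.71 ± 0.11 in the female pool, 1.25-fold higher in the male pool, or -0.32 ± 0.29. The uncorrected readings were 58 and 55 over a local background of 39 on each array.

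Most of the genes were dim. Slc6a4, Htr1a, Htr1b, Htr2a and Htr7 were in the dimmest of these bands of the 13428 measured genes, where the differences had an SD of 0.36 over genes, 6.97% of genes passed 1.5-fold and repeated probes had a median spot SD of 0.18. Htr2c, as a mean of its probes, and Htr3a were in the second band, with an SD over genes of 0.20. None of the 8 was in the brightest band. Over the 10 measured probes, 5 differences were within 1 program error, 2 were between 1 and 2 errors (Slc6a4 and Htr7), and 3 were beyond 2 errors: Tph2, the XR_356450 probe of Htr1b and the brighter Htr2c probe. For Tph2 and the brighter Htr2c probe, the number of errors restates the fold.

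**Figure D4:**
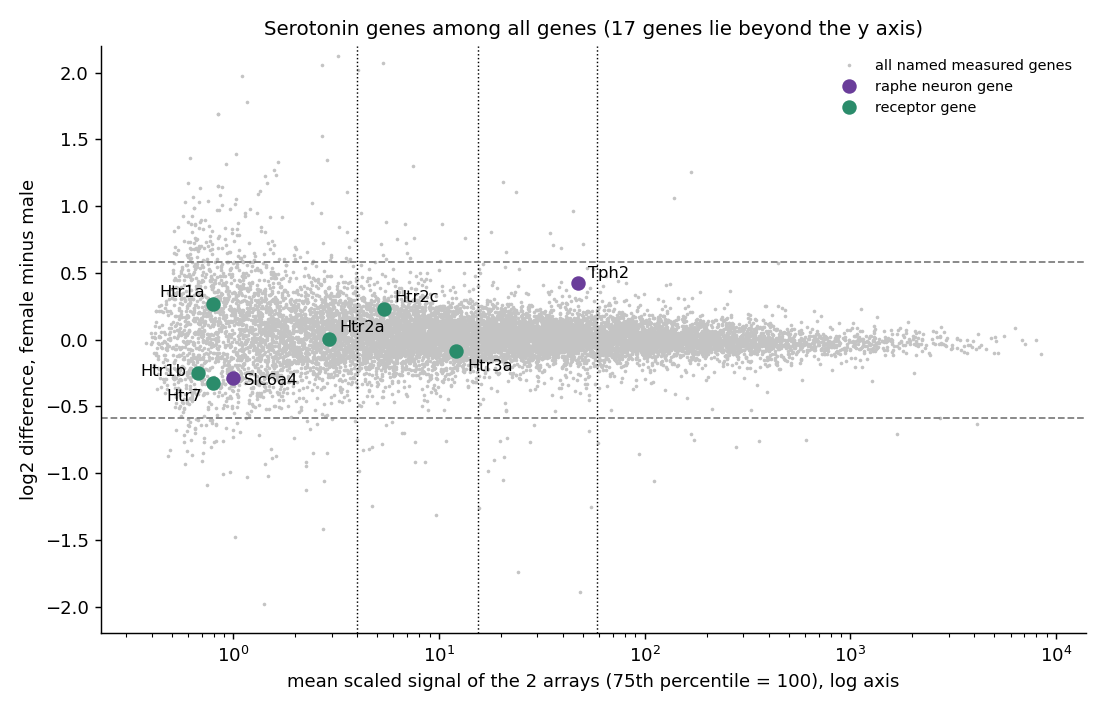
Log2 difference, female minus male, against the mean scaled signal of both arrays (log axis) for 13428 named genes (grey), with the 8 measured serotonin genes as large points. Dotted lines separate the 4 bands of the signal range and dashed lines mark 1.5-fold; the grey cloud narrows from an SD of 0.36 in the dimmest to 0.13 in the brightest band, and Tph2 stands at its upper edge in the third.

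Of 50 further genes of the serotonin pathway, 44 were measured, 24 higher in females and 20 in males, with a median of 0.01. None passed 1.5-fold, beside 2.29% of all named measured genes, so a count of 0 in 44 is near that share. The extremes were -0.41 and 0.42.

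Among 7 further receptor genes, 6 were measured and 3 were higher in each pool, with a median of -0.05. Htr5b, whose probe had the highest signal, gave 6.12 in the male pool and 4.68 in the female pool, a difference of -0.39 ± 0.21. Htr2b, picked likewise by its signal, was at 2.37 against 2.16, a difference of -0.13 ± 0.22. The related Htr5a, chosen after its values were seen, stood the other way at 1.06 against 1.42, a difference of 0.42 ± 0.25. Htr1f was not well above background on either array.

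All 19 genes for other steps of serotonin handling were measured, 8 higher in females and 11 in males, with a median of -0.04. The probes with the highest signals were those of Qdpr, which regenerates the tetrahydrobiopterin cofactor of tryptophan hydroxylase, at 1130 against 979.6 (-0.21 ± 0.20), and Aldh2, an aldehyde dehydrogenase that clears the product of monoamine oxidase, at 387 against 417 (0.11). Tph1, the peripheral and pineal form of the synthesis enzyme, was dim, at 1.40 against 1.71, with both probes higher in the female pool, by 0.17 and 0.41. The pineal enzyme genes Aanat and Asmt, which convert serotonin to melatonin, differed by 0.30 ± 0.21 and 0.19 ± 0.21 in the same direction. Tph1, Aanat and Asmt were chosen after their values were seen.

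Of 12 genes for the identity and co-transmitters of hindbrain serotonergic neurons, 7 were measured, with a median of 0.00 and a range of -0.35 to 0.06. The probes with the highest signals were those of Tac1, the substance P precursor gene, at 544 against 496 (-0.14), and En2 at 13.6 against 12.6 (-0.12 ± 0.20). Besides Gata3, the vesicular glutamate transporter gene Slc17a8 was not well above background on either array and Foxa2 was so on 1 array; En1 and Insm1 had no named probe.

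All 12 receptor partner genes were measured, 9 higher in females and 3 in males in the main setting, with a median of 0.03 beside 0.02 over all genes. The count depends on the centring: Arrb2, Rgs4 and Dlg4, at 0.00, 0.01 and 0.02, fall below zero under median centring. S100a10, whose product p11 brings Htr1b receptors to the cell surface, had the highest signal and the lowest difference, at 221 against 179, a difference of -0.30. Adarb1, an enzyme that edits Htr2c mRNA, gave 179 against 185, a difference of 0.04. Ric3, a chaperone gene for the serotonin-gated channel, chosen after its values were seen, was at 0.00 by its brighter and 0.36 by its dimmer probe.

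The sex labels and the tissue were checked on the same arrays. The Y-linked gene Eif2s3y was well above background on the male array only, at 22.4, and so was 1 probe of Ddx3y, at 6.94. The other Ddx3y probe was well above background on both arrays, at 24.3 in males and 10.2 in females, 2.40-fold higher in the male pool. Uty was not well above background on either array, and Kdm5d had no named probe. The noradrenaline synthesis genes Th and Dbh, markers of the catecholamine neurons of the dorsal medulla, were bright on both arrays. They gave 602 against 532 and 399 against 381, both higher in the male pool. The noradrenergic list was not bright as a whole. Its remaining genes, Slc6a2 and Phox2a, were in the dimmest band and higher in the female pool, by 0.29 ± 0.24 and 0.13 ± 0.24. Slc6a2 and Phox2a were named after their values were seen. Of 10 listed NTS neuron genes, 7 were measured, with a median of 0.11 and none past 1.5-fold. No gene passed 1.5-fold in the noradrenergic (4 measured, median 0.03), ependymal (5, 0.02), astrocyte (7, -0.07), oligodendrocyte (6, -0.23) and microglial (6, -0.07) lists. In the cholinergic motor neuron list 1 of 7 did (median -0.23), in the cerebellar list 1 of 5 (0.18) and in the meningeal list 3 of 8 (0.16). In the main setting all measured cholinergic (7), oligodendrocyte (6) and microglial (6) genes were higher on the male array, and all 5 cerebellar ones on the female array. Spike-in centring adds 0.08 to every difference. It puts the microglial genes Itgam (-0.01), Ctss (-0.01) and Csf1r (-0.05) and the cholinergic gene Isl1 (-0.03) above zero. A shared direction is therefore not shown for the cholinergic and microglial lists.

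**Figure D5:**
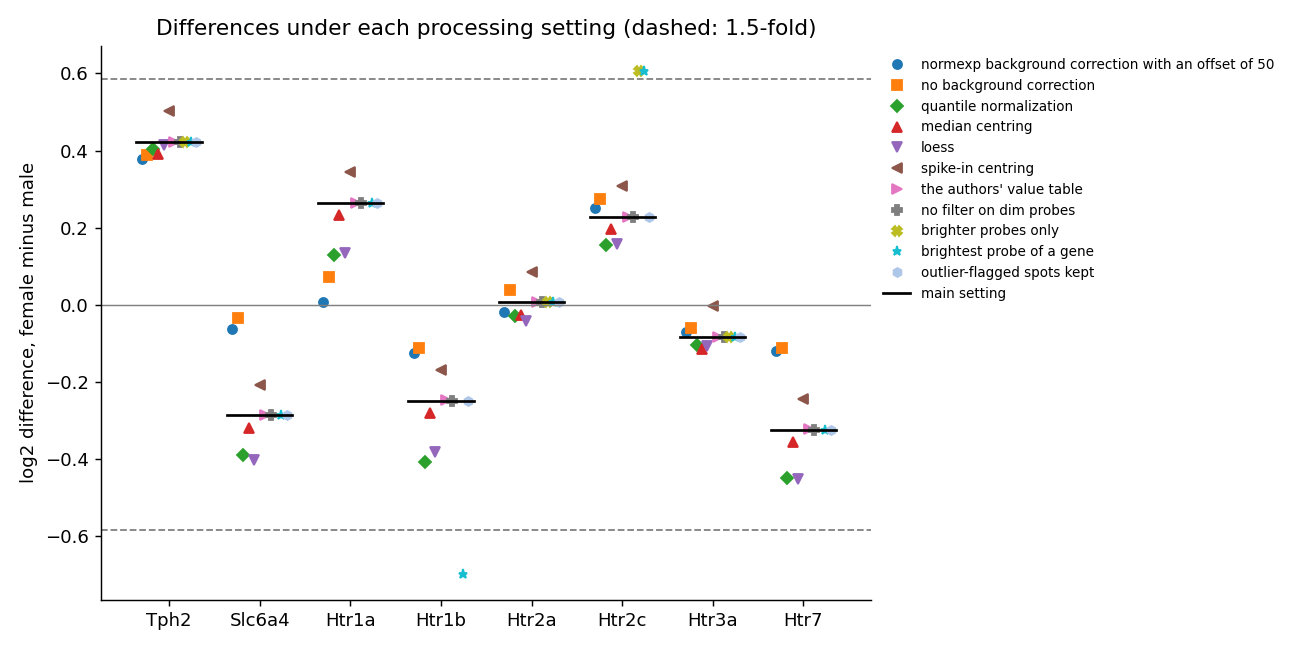
Log2 difference, female minus male, of each of the 8 measured serotonin genes under the main setting (black bars) and 11 other processing settings (symbols), with dashed lines at 1.5-fold. Tph2 stays between 0.38 and 0.50; the dim genes Slc6a4, Htr1a, Htr1b and Htr7 draw towards zero under normexp or without background correction, and Htr2a lies on both sides of zero. The draw towards zero follows from the similar amount that these settings add to or leave in both readings of a dim spot.

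Tph2 was the gene whose value depended least on the processing among those beyond 0.2: it ran from 0.38 with normexp correction to 0.50 after centring on spike-in controls. Slc6a4 kept its direction but ran from -0.40 after loess scaling to -0.04 without background correction. Htr1a ran from 0.01 with normexp to 0.34, and Htr7 from -0.45 to -0.11. Htr1b ran from -0.70 by its brightest probe to -0.11, and Htr2c from 0.15 after quantile normalization to 0.61 by its brighter probe. Htr2a was above zero in 7 of 11 other settings and below it in 4. Htr3a stayed between -0.12 and 0.00.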

How the data were processed

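Total RNA of the 2 pools was measured on 1-colour Agilent rat arrays, both on 1 slide and read in 1 scan. The deposited files give linear spot intensities, background-corrected by Agilent Feature Extraction, version 11.5.1.1 per the file headers and 9.1 per the submitters' processing notes. The authors' deposited value table holds the processed intensity divided by 1 constant per array (22.8 and 23.4), checked on its 48346 spots.

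From these, log2 of the processed signal minus the array's 75th percentile over 58717 spots outside controls was taken. Outlier-flagged spots were dropped (284 and 363; none was a serotonin gene's), repeated spots averaged, and each gene summarised as its mean across probes well above background on both arrays. Such spots made up 80.1% of the male and 82.3% of the female array; none was saturated. Of 45595 probes, 21109 were named through RefSeq accessions of assembly GRCr8, used for names only; the 6958 probes with Ensembl transcript identifiers were not used. The error of a difference combines both spots' program errors; spot SDs come from 1323 probes with at least 8 spots. Numbers come from Python 3.11.15 and, for normexp and loess, limma 3.58.1.

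With 1 array per sex no test or p-value is given, and the number of arrays limits the precision. The genes and lists were chosen with earlier results of these data known. Named were all 10 serotonin genes and, from each further list, up to 4 genes past 1.5-fold or else the brightest 2; picks from cell type lists that touch no result are given by counts, and 1 listed gene is not reported here. The calculation was tested on simulated data.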

Additional observations from a re-analysis of the deposited data

How the results depend on the processing

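No paired analysis was possible because males and females had 1 pooled array each, and no array could be left out. The 11 other settings were normexp (offset 50) and no background correction on each spot's median signal (the file has no mean), quantile, median, loess and spike-in scaling, the authors' table, no filter on dim probes, brighter probes only, the brightest probe of a gene, and flagged spots kept. Of 84 values of single genes under them, 81 moved by less than the program's error. That count says little about robustness. Keeping flagged spots and dropping the dim filter left all 8 genes unchanged, and the authors' table differs only by a constant per array. The error is also wide: Htr1a at 0.01 with normexp, against 0.26 in the main setting, counts among the 81. In 4 of the 84, all of Htr2a, the sign changed, and the dimmer probe of Htr1b and of Htr2c also changed sign in some settings. No serotonin gene passed 1.5-fold in the main setting, but 1 did with brighter probes only (Htr2c at 0.61) and 2 with the brightest probe of a gene (Htr2c at 0.61, Htr1b at -0.70), because each then rests on 1 of its 2 probes. Of all genes, 0.985% and 2.32% passed 1.5-fold in these settings. The raphe median was 0.42 with brighter probes only, where Tph2 alone had a value. The wider pathway had no gene past 1.5-fold in any setting, nor at 2-fold. Spike-in centring adds 0.08 to every difference. Of the 8 genes, 4 had a value with brighter probes only. Low signal over background limits Slc6a4, Htr1a, Htr1b and Htr7, and both other readings of the background brought these 4 closer to zero. These settings leave in the background or add an offset of 50. A similar amount under both readings of a dim spot shrinks its log2 difference by construction, so this is no separate result about these genes.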

Other observations

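Of the serotonin genes and the other genes for serotonin handling, Htr2c, Maoa and Maob are X-linked, and they did not share a direction. These genes were picked out after their values were seen. Maob, the gene of the monoamine oxidase found in serotonergic neurons and astrocytes, gave 61.5 in the male pool and 46.1 in the female pool, a difference of -0.41 ± 0.20 towards the male pool and the lowest in the wider pathway. Maoa, whose enzyme prefers serotonin, gave 12.4 and 12.8, a difference of 0.04 ± 0.20. The Htr2c probes stood at 0.61 and -0.15.

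The uptake genes of the low-affinity, high-capacity route for monoamines were both lower on the female array in the main setting. Slc29a4 was at 328 against 312, a difference of -0.07 ± 0.20, and Slc22a3 was at 44.7 against 38.5, a difference of -0.22 ± 0.20. Spike-in centring, which adds 0.08 to every difference, reverses the sign of Slc29a4, so a shared direction is not shown. These genes, too, were picked out after their values were seen.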
